A study of Arabidopsis thaliana with 12 samples.

Results

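The genes described here are the 50 genes of nuclear auxin signalling in Arabidopsis thaliana: 29 Aux/IAA repressors, 15 auxin response factors (ARF) and 6 TIR1/AFB auxin receptors. They were chosen by name, as a list of locus identifiers, out of the 33602 genes in the deposited table, and all 50 were found there. RNA was sequenced from whole seedlings of the wild type Columbia 0 that had grown for 3 days at 22 °C with 10 h of white light a day (100 µmol per square metre and second, red to far-red ratio 1.1). On day 4 they spent the 10 h light period in shade at 28 °C, in shade at 20 °C, in white light at 28 °C or in white light at 20 °C, and were collected at the end of it. Each of the 4 groups had 3 replicates, shared 1 genotype and differed only in light and temperature. The labels do not say how the shade was made, nor whether replicates came from separate plates or sowings, so p-values measure the spread between these samples.

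Auxin is a plant growth hormone that is read in the nucleus by a short chain of proteins. A TIR1/AFB F-box protein and an Aux/IAA protein bind auxin between them, and the Aux/IAA protein is then tagged for destruction. Aux/IAA proteins hold ARF transcription factors in check together with TOPLESS corepressors, so their loss frees the ARF proteins to act on genes with auxin response elements. Many Aux/IAA genes are themselves switched on by auxin, which makes their transcripts a common readout of the pathway and closes a negative feedback loop. In seedlings, shade and warmth are both known to raise auxin production in the cotyledons and to lengthen the hypocotyl.

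Levels are given in CPM, read counts scaled to the same library total, and differences as log2 changes of log2 CPM with 0.5 read added, with the standard error (SE) of limma. A gene was called when its limma p, adjusted by the Benjamini-Hochberg method over all 21316 genes tested, was under 0.05. The libraries held 3500325 to 4481869 reads assigned to genes, so 1 CPM stood for 3.5 to 4.48 reads. Of the 50 genes, 49 passed the filter on low values. IAA15 did not; it had 2 reads in all, both in replicate 2 of white light at 20 °C, and no read in the other 11 libraries. In bulk RNA, fewer cells of a type and less RNA per cell cannot be told apart. The summed level of 4 photosynthesis genes used as shoot markers was 7620.4 to 12548.7 CPM in shade at 28 °C, 13234.9 to 15339.0 CPM in shade at 20 °C, 10466.0 to 15441.7 CPM in white light at 28 °C and 20711.8 to 21362.7 CPM in white light at 20 °C. That of 7 root markers was 4981.5 to 5132.7 CPM, 3698.2 to 4601.0 CPM, 5037.9 to 5128.6 CPM and 3114.3 to 4292.3 CPM in the same groups. Most of the shoot sum came from RBCS1A and most of the root sum from PYK10 in every library, so each sum mainly followed a single gene. Of the 4 shoot markers, 2 to 4 were called lower in each of the 5 comparisons below, and of the 7 root markers 0 to 2 higher. The part of these shifts in the results below was not tested. Replicate 3 of shade at 20 °C held 178.4 CPM of 3 seed markers, where the other 11 libraries held 1.4 to 36.2 CPM. Reads of 18S ribosomal RNA took over 1.5% of the reads in 4 libraries, and the source of these reads was not tested. The 4 libraries were replicates 2 and 3 of shade at 28 °C, replicate 3 of white light at 28 °C and replicate 2 of white light at 20 °C. Results are given without these 4 libraries where that ended a call.

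Shade and warmth together raised 20 of the 49 tested genes against white light at 20 °C and lowered 2. All 6 genes with the largest called changes in that comparison, IAA29, IAA6, IAA19, IAA20, IAA2 and IAA32, were Aux/IAA genes. Of these, IAA6 passed the filter on low values only through shade libraries. Of all genes tested, 22.3% were called in that comparison, 14.9% higher and 7.42% lower. In white light, warmth raised 12 of the 49 genes and lowered 0, where 15.6% of all genes were called, 10.8% higher and 4.8% lower. At 20 °C, shade raised 11 and lowered 0, where 8.09% of all genes were called, 5.43% higher and 2.66% lower. At 28 °C, shade raised 8 and lowered 0, where 4.59% of all genes were called, 2.68% higher and 1.9% lower. Under shade, warmth raised 1 and lowered 0, where 4.18% of all genes were called, 2.19% higher and 1.99% lower. In the order of these 5 comparisons, genes with a limma p under 0.05 before adjustment were 26 higher and 2 lower, 16 and 1, 22 and 2, 13 and 3, and 8 and 0. With voom weights in limma the calls were 20 higher and 2 lower, 11 and 0, 12 and 0, 8 and 0, and 3 and 0. Of all genes, voom weights called 4557, 3296, 1755, 1049 and 941 in the same order. In all, 23 of the 49 genes were called in at least 1 of the 5 comparisons and 26 in none. The 3 comparisons against white light at 20 °C share those 3 libraries.

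**Figure D1:**
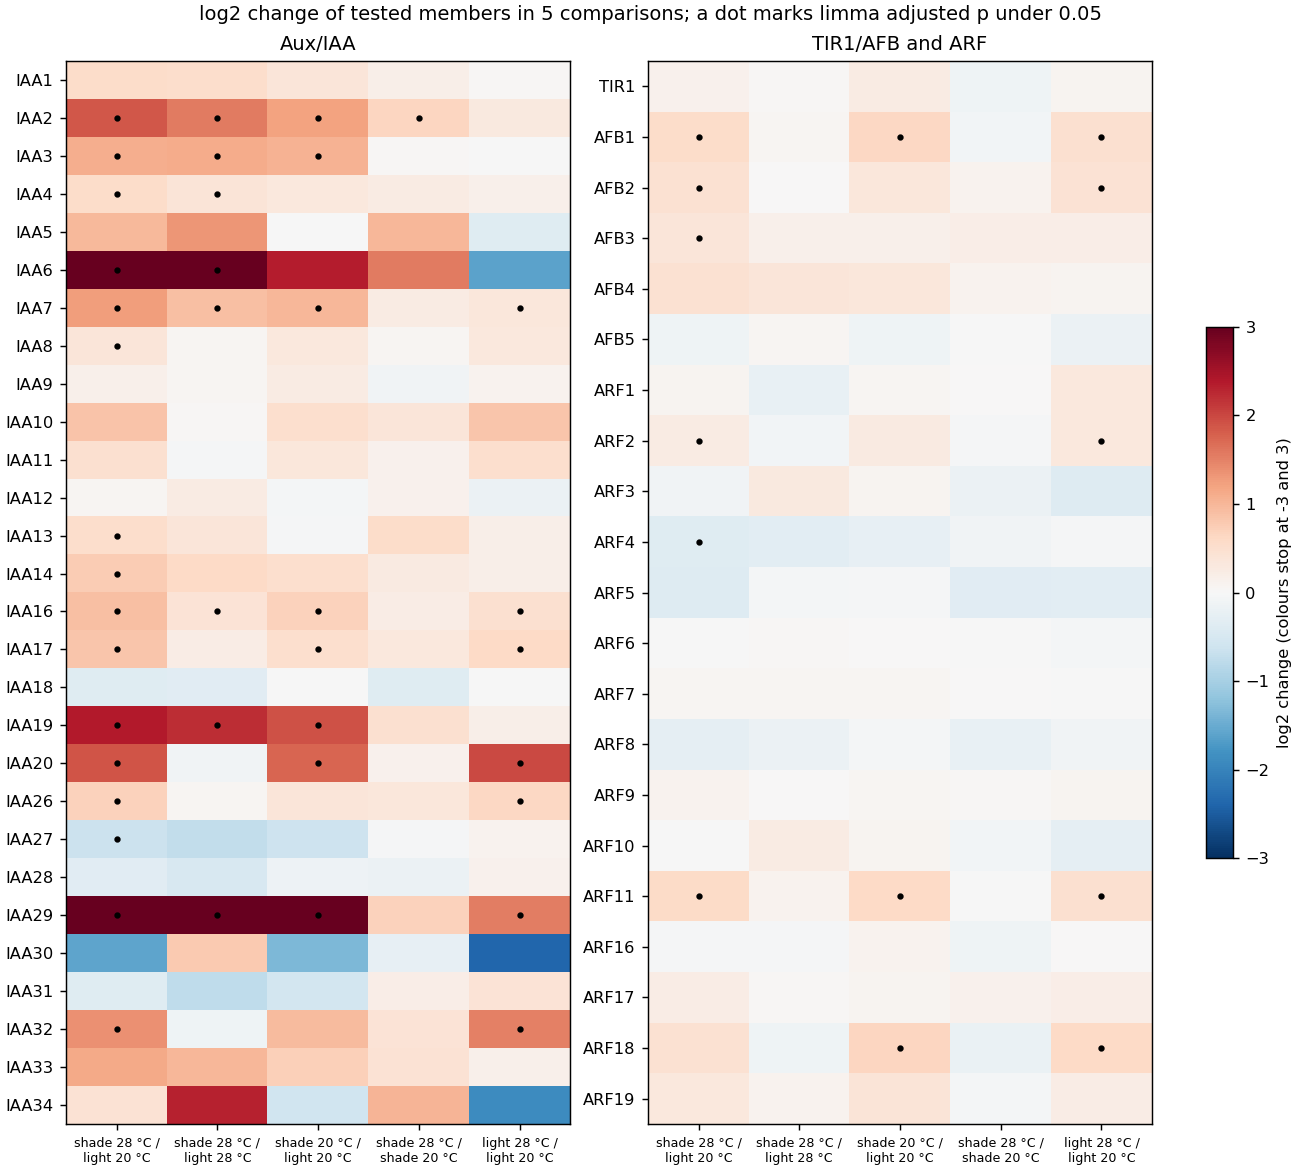
Heat map of the log2 change of the 49 tested genes, with genes in rows and 5 comparisons in columns, each named as the group above over the group below. Colours run from blue (lower) to red (higher) and stop at a change of 3, and dots mark the calls; the Aux/IAA panel holds 15 dots for higher genes in its first column, and the receptors and ARF panel has no dot in the columns for shade at 28 °C and for warmth under shade.

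The median log2 change over the 49 genes was 0.42 for shade and warmth together, against 0.16 over all genes tested. It was 0.16 for warmth in white light, against 0.16 over all genes, and 0.26 for shade at 20 °C, against 0.06. It was 0.06 for shade at 28 °C, against -0.02, and 0.11 for warmth under shade, against 0.08. In the comparisons that set 28 °C libraries against white light at 20 °C, the centre of all genes was therefore shifted upwards. Scaling to a trimmed mean, to the median or by quantiles moved that centre to between 0.01 and 0.02, and the split of calls with it. For warmth in white light the calls became 7 higher and 2 lower, 7 and 3, and 8 and 1 under the 3 scalings. Of all 21316 genes, 2491, 2470 and 2514 were then called, 42.9%, 39.8% and 46.1% of them higher. For shade and warmth together the calls among the 49 became 16 higher and 4 lower, 16 and 5, and 16 and 5. Of all genes, 4062, 4029 and 4033 were called there, 46.7%, 44.5% and 47.5% of them higher.

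The Aux/IAA family as a whole took more of the reads in every treated group. Summed over the 29 genes, its level was 1898, 2167 and 1992 CPM in shade at 28 °C, 1681, 1726 and 1868 CPM in shade at 20 °C, 1353, 1483 and 1568 CPM in white light at 28 °C, and 1158, 1171 and 1222 CPM in white light at 20 °C. At the deposited scaling, the libraries of shade at 28 °C were the highest and those of white light at 20 °C the lowest, and no 2 groups overlapped. Under the other scalings the overlap of libraries was not looked at. Set against white light at 20 °C, the mean was 1.71 times as high in shade at 28 °C, 1.49 times in shade at 20 °C and 1.24 times in white light at 28 °C. With trimmed mean scaling these ratios were 1.55, 1.43 and 1.12.

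The ARF sum moved less. It was 849, 853 and 855 CPM in shade at 28 °C, 876, 915 and 855 CPM in shade at 20 °C, 859, 886 and 883 CPM in white light at 28 °C, and 805, 789 and 834 CPM in white light at 20 °C. Its ratios to white light at 20 °C were 1.05, 1.09 and 1.08 in the same order of treated groups, and 0.959, 1.05 and 0.981 with trimmed mean scaling, so their direction turned round for the groups at 28 °C. The TIR1/AFB sum was 458, 500 and 470 CPM in shade at 28 °C, 468, 474 and 473 CPM in shade at 20 °C, 442, 468 and 443 CPM in white light at 28 °C, and 386, 388 and 409 CPM in white light at 20 °C. At the deposited scaling, all 9 treated libraries lay above the 3 of white light at 20 °C, and other scalings were not looked at for this. Its ratios were 1.21, 1.2 and 1.14, and 1.1, 1.15 and 1.04 with trimmed mean scaling.

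**Figure D2:**
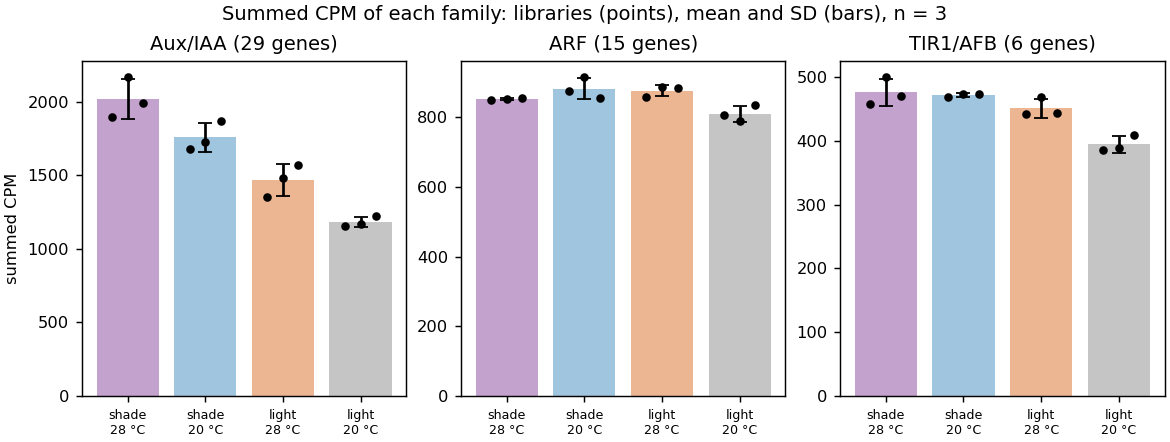
Summed level of each family in CPM (y axis, from 0) by group (x axis): points are libraries, bars are group means and error bars are SDs (n = 3). The mean Aux/IAA sum is 2019 CPM in shade at 28 °C and 1184 CPM in white light at 20 °C, with the other groups between, while the ARF sum stays between 789 and 915 CPM in all libraries.

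Among the receptors, AFB1 and AFB2 were higher in several treated groups, and TIR1, AFB4 and AFB5 were not called in any comparison. AFB1 (AT4G03190), an auxin receptor that acts in fast responses of roots and sits largely outside the nucleus, had 96.3, 117.1 and 105.7 CPM in shade at 28 °C, 111.7, 118.3 and 106.8 CPM in shade at 20 °C, 99.6, 102.6 and 102.5 CPM in white light at 28 °C, and 74.1, 77.4 and 66.9 CPM in white light at 20 °C. Shade at 28 °C overlapped both groups with a single treatment, which did not overlap each other, and all 3 lay above white light at 20 °C. AFB1 rose by 0.48 ± 0.10 with warmth in white light (limma adjusted p = 0.00183), by 0.63 ± 0.10 with shade at 20 °C (adjusted p = 0.000142) and by 0.55 ± 0.10 with both (adjusted p = 0.000286). The call for both was lost without the 4 libraries over 1.5% 18S reads, at 0.45 (limma adjusted p = 0.0663). At 28 °C the change with shade was 0.06, with a 95% interval of -0.15 to 0.28.

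AFB2 (AT3G26810), a receptor closely related to TIR1, had 109.2, 109.6 and 87.1 CPM in shade at 28 °C, 93.8, 87.4 and 99.9 CPM in shade at 20 °C, 94.3, 106.0 and 101.0 CPM in white light at 28 °C, and 71, 73.1 and 77.7 CPM in white light at 20 °C. Again every treated library was above every library of white light at 20 °C. AFB2 rose by 0.44 ± 0.11 with warmth in white light (limma adjusted p = 0.00626) and by 0.46 ± 0.11 with shade and warmth together (adjusted p = 0.00295), and its change of 0.34 ± 0.11 with shade at 20 °C did not pass (adjusted p = 0.0535). The call for warmth was lost with trimmed mean scaling (0.30, limma adjusted p = 0.076) and with the median subtracted (0.28, adjusted p = 0.0965). Without replicate 3 of shade at 28 °C, AFB2 was also called higher with shade at 20 °C. AFB3 (AT1G12820), the close relative of AFB2, was called for shade and warmth together at 0.37 ± 0.13 (limma adjusted p = 0.0447). Of 22 alternative settings, 12 ended that call. Removals that ended it were those of replicates 2 and 3 of shade at 28 °C, replicate 2 of white light at 28 °C and replicates 1, 2 and 3 of white light at 20 °C. Over the alternatives its change was 0.11 to 0.47, and the lowest of these was the value without the 4 libraries over 1.5% 18S reads (limma adjusted p = 0.795). Noncoding RNAs on the opposite strand overlap AFB1 by 423 bases and AFB3 by 638, and reads from them cannot be told apart from those of the receptors.

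TIR1 (AT3G62980), the receptor that gave the family its name, had 90.9, 73.7 and 98.6 CPM in shade at 28 °C, 92.5, 95.2 and 97.3 CPM in shade at 20 °C, 83.1, 90.8 and 80.1 CPM in white light at 28 °C, and 75.2, 78.3 and 86.8 CPM in white light at 20 °C. The groups overlapped except that shade at 20 °C lay above both white light groups, and the largest change, 0.25 ± 0.11 with shade at 20 °C, did not pass (limma adjusted p = 0.206). AFB4 and AFB5, the pair known as receptors of picloram-type auxins, had changes of 0.09 to 0.46 and -0.18 to 0.05 over the 5 comparisons. A gene on the opposite strand overlaps AFB4 by 644 bases and had 382 reads against 1054 for AFB4, so reads of that pair cannot be told apart. With trimmed mean scaling and with the median subtracted, AFB5 was called lower with warmth in white light. Per kb of merged exon, AFB4 was the lowest receptor in white light at 20 °C at 6.23 ± 0.664 CPM per kb (SD, n = 3), and AFB5 the highest at 40.1 ± 2.85 CPM per kb.

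**Figure D3:**
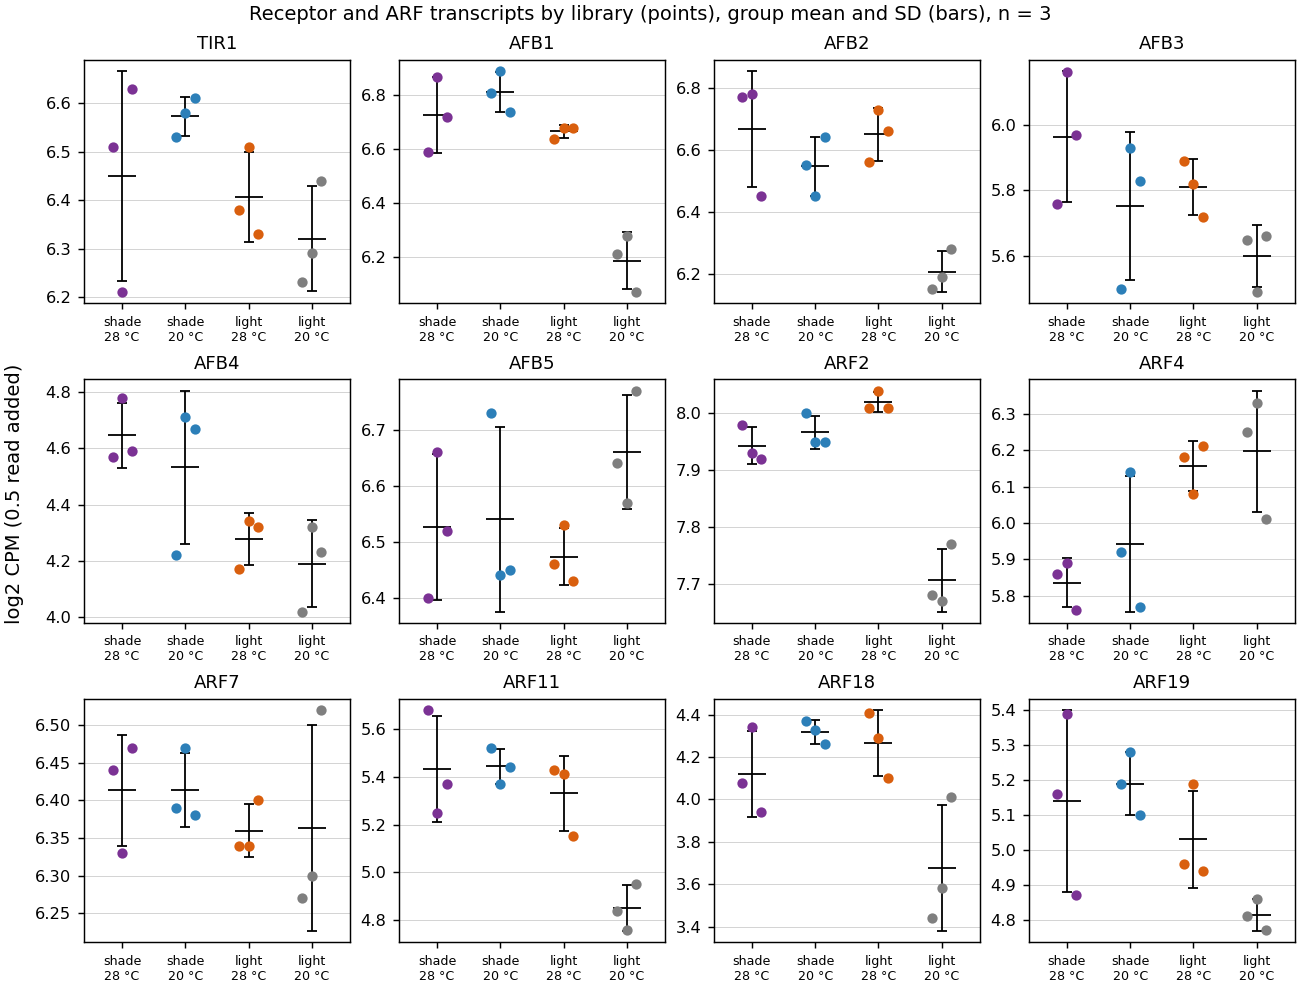
Level of the 6 receptors and 6 ARF genes in log2 CPM with 0.5 read added (y axis, a separate scale in each panel) by group (x axis): points are libraries, and bars show group means and SDs (n = 3). AFB1, AFB2 and ARF2 are lowest in white light at 20 °C, with no overlap with the other 3 groups, and ARF7 overlaps in all groups.

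The Aux/IAA genes that rose in shade at both temperatures were IAA29, IAA19, IAA2, IAA3, IAA7 and IAA16. Each of them is a repressor with the degron through which TIR1/AFB receptors recognise it, a stretch whose core is Gly-Trp-Pro-Pro. The 39 coding bases around the core are shown for 4 of these genes and for IAA27, the Aux/IAA gene that fell, so that the degrons can be compared; capitals mark the 12 bases that encode the core. Sequences here were read from the RefSeq genome TAIR10.1 by the annotated coding sequence of each locus, 5′ to 3′ on the strand of the gene.
IAA29 (chr4:15583939-15583977, + strand): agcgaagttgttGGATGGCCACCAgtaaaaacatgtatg
IAA19 (chr3:5264304-5264342, + strand): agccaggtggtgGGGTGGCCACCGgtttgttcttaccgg
IAA7 (chr3:8195565-8195603, + strand): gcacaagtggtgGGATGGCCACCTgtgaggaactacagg
IAA3 (chr1:1129013-1129051, - strand): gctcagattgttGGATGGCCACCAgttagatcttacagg
IAA27 (chr4:14324648-14324686, - strand): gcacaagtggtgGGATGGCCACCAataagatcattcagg

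All 5 fragments encode the same 4 residues of the core, though not by the same bases throughout. The residue after the core is isoleucine in IAA27 and valine in the other 4. Isoleucine also follows the core in IAA8, IAA11, IAA12 and IAA13, so it does not set IAA27 apart. Of these, IAA8 and IAA13 were called higher with shade and warmth together. By the annotation, 23 of the 29 Aux/IAA genes encode the core in at least 1 isoform, IAA29 in 2 of its 3 isoforms, and IAA20, IAA30, IAA31, IAA32, IAA33 and IAA34 in none. Of the 22 tested genes with the core, 7 rose with shade at 20 °C and 8 with shade at 28 °C. Of the 6 tested genes without it, 1 and 0 rose, where 5.43% and 2.68% of all genes did. The 8 include IAA6, which passed the filter on low values only through shade libraries. They also include IAA4, whose call was lost in 14 of 22 alternatives. With warmth in white light, 5 of the 22 genes with the core and 2 of the 6 without it rose, where 10.8% of all genes did. IAA30, IAA31, IAA33 and IAA34, without the core, and IAA5, with it, had 2 to 20 reads over each group. Changes of several fold in these genes could be missed at this depth. The difference between the 2 kinds was not tested.

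IAA29 (AT4G32280), an Aux/IAA known as a target of PIF factors in shade, had 42.5, 41.2 and 37.3 CPM in shade at 28 °C, 28.9, 18.4 and 29 CPM in shade at 20 °C, 4.36, 3.93 and 6.56 CPM in white light at 28 °C, and 2.45, 1.42 and 1.14 CPM in white light at 20 °C. The 4 groups did not overlap, and they stood in that order from high to low. The group means set IAA29 14.6-fold higher in shade than in white light at 20 °C and 8.16-fold higher at 28 °C, both on the fitted log2 scale (limma adjusted p = 4.64e-10 and 9.11e-08). With shade and warmth together the log2 change had a 95% interval of 3.95 to 5.16. With warmth in white light it rose by 1.53, which voom weights no longer called (adjusted p = 0.0676 in limma). In white light at 20 °C the value rested on 21 reads over the group, and in white light at 28 °C on 63.

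IAA19 (AT3G15540), a repressor that acts in the bending and elongation of hypocotyls, had 68.7, 83.6 and 81.9 CPM in shade at 28 °C, 52.6, 56.5 and 59.2 CPM in shade at 20 °C, 13.6, 14.5 and 23.3 CPM in white light at 28 °C, and 17.2, 12.1 and 15.4 CPM in white light at 20 °C. The 2 white light groups overlapped, and both shade groups lay above them. The fitted fold was 3.78 for shade at 20 °C and 4.66 for shade at 28 °C (limma adjusted p = 1.35e-08 and 5.28e-09). The changes with warmth were 0.17 ± 0.18 in white light (adjusted p = 0.569) and 0.47 ± 0.18 under shade (adjusted p = 0.151). Under shade the groups did not overlap, and with voom weights that change was called.

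The 250 bases before the annotated start of the IAA19 and IAA29 genes, the pair with the highest called changes in shade at 20 °C, are shown with those of IAA20, which rose in shade without the degron core. Capitals mark the sequences TGTCTC and TGTCGG (auxin response elements), CACGTG (the G-box) and CATGTG (an E-box) on either strand.
IAA19 (chr3:5263751-5264000, + strand): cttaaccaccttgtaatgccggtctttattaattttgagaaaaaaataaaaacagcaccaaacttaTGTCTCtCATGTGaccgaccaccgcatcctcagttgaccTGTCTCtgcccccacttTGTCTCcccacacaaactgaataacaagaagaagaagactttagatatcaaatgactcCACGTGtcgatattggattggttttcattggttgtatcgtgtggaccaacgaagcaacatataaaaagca
IAA29 (chr4:15583082-15583331, + strand): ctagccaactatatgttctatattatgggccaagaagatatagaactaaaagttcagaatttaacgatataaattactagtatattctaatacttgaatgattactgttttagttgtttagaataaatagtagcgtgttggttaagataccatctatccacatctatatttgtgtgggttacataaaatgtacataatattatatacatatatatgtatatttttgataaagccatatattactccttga
IAA20 (chr2:19307464-19307713, + strand): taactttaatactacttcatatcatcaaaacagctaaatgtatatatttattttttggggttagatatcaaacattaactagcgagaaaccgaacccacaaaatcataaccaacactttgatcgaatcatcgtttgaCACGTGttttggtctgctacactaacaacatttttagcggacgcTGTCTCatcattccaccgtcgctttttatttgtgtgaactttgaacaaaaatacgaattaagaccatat

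In IAA19 the window holds 3 TGTCTC matches, 1 CACGTG match and 1 CATGTG match, in IAA20 1 TGTCTC and 1 CACGTG match, and in IAA29 none of the 4. Across the windows of 26711 protein-coding genes, 10.9% hold TGTCTC, 4.16% TGTCGG, 6.58% CACGTG and 11.2% CATGTG. Of the 8 Aux/IAA genes called in shade at 20 °C, 2 hold TGTCTC, 1 TGTCGG, 3 CACGTG and 2 CATGTG. Of the other 21 Aux/IAA genes, 7 hold TGTCTC, 5 TGTCGG, 1 CACGTG and 4 CATGTG. Of the 15 ARF genes, 1, 2, 0 and 1 hold the motifs in that order, and of the 6 receptors 1, 0, 0 and 2. The 2 CATGTG matches of IAA3 overlap. These counts describe letters in the windows, and binding was not measured.

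IAA2 (AT3G23030), whose promoter is widely used as an auxin reporter, had 146.5, 171.9 and 151.2 CPM in shade at 28 °C, 105.2, 80 and 119.2 CPM in shade at 20 °C, 46, 62.1 and 51.2 CPM in white light at 28 °C, and 39.7, 44.7 and 45.1 CPM in white light at 20 °C. No 2 groups overlapped. It rose by 1.21 ± 0.13 with shade at 20 °C (limma adjusted p = 2.79e-07) and by 1.57 ± 0.13 with shade at 28 °C (adjusted p = 1.33e-08). Of the 49 genes, IAA2 was the 1 called for warmth under shade, at 0.64 ± 0.13 (adjusted p = 0.00462). That call was lost with a constant prior variance, without replicate 2 of shade at 20 °C (0.48) and without the 4 libraries over 1.5% 18S reads (0.55, limma adjusted p = 0.219). In white light the change with warmth was 0.29 ± 0.13 (adjusted p = 0.152).

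IAA3 (AT1G04240), a repressor known as SHY2 from light-grown root and hypocotyl mutants, had 50.5, 53.3 and 48.1 CPM in shade at 28 °C, 39.6, 47.3 and 64.8 CPM in shade at 20 °C, 28.3, 20.6 and 22.2 CPM in white light at 28 °C, and 25.7, 20.8 and 25.4 CPM in white light at 20 °C. The shade groups overlapped each other, as did the white light groups, and all shade libraries lay above all white light libraries. It rose by 1.05 ± 0.17 with shade at 20 °C and by 1.10 ± 0.17 at 28 °C (limma adjusted p = 7.77e-05 and 7.17e-05). The changes of IAA3 with warmth were -0.02 in white light and 0.03 under shade, and did not pass. A gene on the opposite strand overlaps IAA3 by 640 bases, and since no source states that strand was used in counting, reads from the pair cannot be told apart; 412 reads in all were counted to that gene against 1823 to IAA3.

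IAA7 (AT3G23050), known as AXR2, and IAA16 are close relatives with high levels. IAA7 had 383.4, 424.1 and 366.0 CPM in shade at 28 °C, 305.0, 351.9 and 333.5 CPM in shade at 20 °C, 176.6, 217.2 and 241.1 CPM in white light at 28 °C, and 154.6, 174.4 and 166.0 CPM in white light at 20 °C. The 4 groups did not overlap. Shade raised it by 0.999 ± 0.106 at 20 °C and by 0.90 ± 0.11 at 28 °C (limma adjusted p = 1.36e-07 and 1.69e-06). Its call for warmth in white light, at 0.35 ± 0.11 (adjusted p = 0.0243), was lost in 9 of 22 alternatives, 3 of them the other scalings. Removals that ended it were those of replicates 2 and 3 of white light at 28 °C and replicates 1 and 3 of white light at 20 °C. Without the 4 libraries over 1.5% 18S reads it was 0.29 (limma adjusted p = 0.144). Over the alternatives its change was 0.19 to 0.47.

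IAA16 (AT3G04730) had 292.5, 339.8 and 311.2 CPM in shade at 28 °C, 255.9, 268.2 and 290.6 CPM in shade at 20 °C, 229.7, 256.4 and 224.8 CPM in white light at 28 °C, and 161.1, 168.7 and 177.4 CPM in white light at 20 °C. Shade at 28 °C lay above all other groups and white light at 20 °C below them, while the groups with a single treatment overlapped. It rose by 0.49 ± 0.09 with warmth in white light, by 0.68 ± 0.09 with shade at 20 °C and by 0.41 ± 0.09 with shade at 28 °C (limma adjusted p = 0.000622, 9.85e-06 and 0.00771). The last call was lost with a constant prior variance, without replicate 2 of shade at 28 °C, and without the 4 libraries over 1.5% 18S reads (0.27, limma adjusted p = 0.465).

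IAA2, IAA7 and IAA16 together supplied 862 ± 63.8 CPM in shade at 28 °C, 703 ± 38.7 CPM in shade at 20 °C, 502 ± 43.7 CPM in white light at 28 °C and 377 ± 18.9 CPM in white light at 20 °C (SD, n = 3 each). Within the family, IAA7 took 19.4 ± 0.927% of the Aux/IAA CPM in shade at 28 °C, 18.8 ± 1.39% in shade at 20 °C, 14.4 ± 1.19% in white light at 28 °C and 13.9 ± 0.828% in white light at 20 °C (SD, n = 3 each). IAA9 (AT5G65670), a close relative of IAA8 that was not called in any comparison, took 13.8 ± 0.507%, 16.9 ± 0.404%, 18.3 ± 0.807% and 21.2 ± 0.555% in the same groups. Per kb of merged exon, IAA9 was the highest of the 50 genes in white light at 20 °C at 117 ± 1.36 CPM per kb, above IAA7 at 86.5 ± 5.2. In shade at 28 °C IAA7 led at 205 ± 15.6 CPM per kb, above IAA16 at 155 ± 11.8 and IAA9 at 130 ± 8.17 (SD, n = 3 each).

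**Figure D4:**
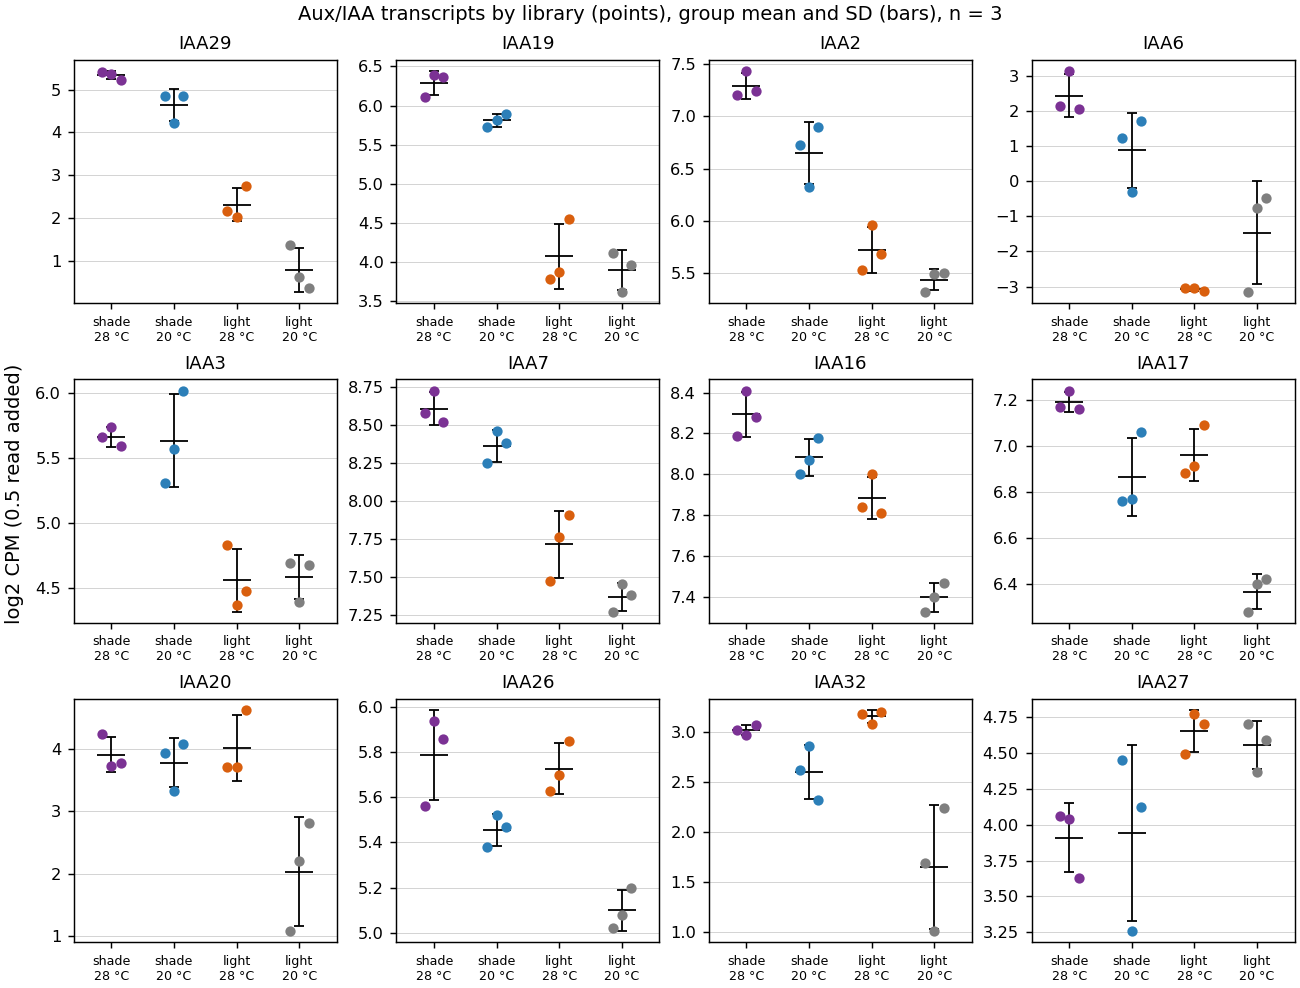
Level of 12 Aux/IAA genes in log2 CPM with 0.5 read added (y axis, a separate scale in each panel) by group (x axis): points are libraries, and bars show group means and SDs (n = 3). IAA19 and IAA3 separate shade from white light, IAA20 and IAA32 separate white light at 20 °C from the other 3 groups, and IAA6 lies at the level of 0 reads in white light at 28 °C.

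IAA6 (AT1G52830), known as SHY1, was close to the limit of detection outside shade. It had 4.28, 8.68 and 4.01 CPM in shade at 28 °C, 2.24, 0.692 and 3.17 CPM in shade at 20 °C, no read in white light at 28 °C, and 0.0, 0.473 and 0.571 CPM in white light at 20 °C. With 66 reads in shade at 28 °C against 0 in white light at 28 °C, it was at least 24.1-fold higher in shade, taking 3 reads over the group as the floor, which covers counting error only. IAA6 passed the filter on low values only through shade libraries, since all its values in white light were below the filter. It was called for shade at 28 °C and for shade and warmth together (limma adjusted p = 0.000182 and 0.00197), and its change in shade at 20 °C did not pass (adjusted p = 0.113). Without the 4 libraries over 1.5% 18S reads, both calls were lost (limma adjusted p = 0.0847 and 0.105).

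A second set, IAA20, IAA17, IAA26 and IAA32, had libraries above those of white light at 20 °C in each treated group, and was not called when shade was set against white light at 28 °C. IAA20 (AT2G46990), which lacks the degron core, had 18.8, 13.1 and 13.5 CPM in shade at 28 °C, 15.2, 9.91 and 16.8 CPM in shade at 20 °C, 13.1, 13 and 24.7 CPM in white light at 28 °C, and 2.01, 4.5 and 6.86 CPM in white light at 20 °C. The 3 treated groups overlapped each other and lay above white light at 20 °C. The fitted fold was 3.97 for warmth in white light, 3.36 for shade at 20 °C and 3.69 for both (limma adjusted p = 0.000163, 0.000955 and 0.00016). At 28 °C the log2 change with shade was -0.11 ± 0.34. The call for shade at 20 °C was lost with a constant prior variance (adjusted p = 0.051).

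IAA17 (AT1G04250), known as AXR3, had 143.4, 151.0 and 143.2 CPM in shade at 28 °C, 107.9, 109.3 and 133.1 CPM in shade at 20 °C, 117.5, 120.2 and 136.3 CPM in white light at 28 °C, and 77.4, 84.5 and 85.7 CPM in white light at 20 °C. The groups of a single treatment overlapped, shade at 28 °C lay above them and white light at 20 °C below. It rose by 0.59 ± 0.10 with warmth in white light, by 0.49 ± 0.10 with shade at 20 °C and by 0.82 ± 0.10 with both (limma adjusted p = 0.000225, 0.00218 and 1.13e-06). On the genome, IAA17 lies head to head with IAA3 on chromosome 1, IAA7 with IAA2 on chromosome 3 and IAA1 with IAA14 on chromosome 4, each pair with no protein-coding gene between.

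IAA26 and IAA32 were called with warmth in white light and with both treatments, and not with shade at 20 °C. Without replicate 3 of white light at 20 °C, however, IAA32 was called higher with shade at 20 °C. IAA26 (AT3G16500), also named PAP1 for its association with phytochrome, had 47, 61.3 and 58.1 CPM in shade at 28 °C, 41.4, 45.9 and 44.1 CPM in shade at 20 °C, 49.4, 51.8 and 57.7 CPM in white light at 28 °C, and 32.4, 33.6 and 36.6 CPM in white light at 20 °C. The 3 treated groups lay above white light at 20 °C, and shade at 20 °C lay below the groups at 28 °C. It rose by 0.63 ± 0.13 with warmth and by 0.69 ± 0.13 with both (limma adjusted p = 0.00116 and 0.000238); the second call was lost without the 4 libraries over 1.5% 18S reads (0.45, adjusted p = 0.16). IAA32 (AT2G01200), which lacks the degron core and is known from the apical hook, had 7.98, 7.69 and 8.26 CPM in shade at 28 °C, 6.05, 7.15 and 4.88 CPM in shade at 20 °C, 8.97, 8.34 and 9.05 CPM in white light at 28 °C, and 3.12, 1.89 and 4.57 CPM in white light at 20 °C. No 2 groups overlapped, and white light at 28 °C was the highest. It rose by 1.51 ± 0.34 with warmth and by 1.37 ± 0.34 with both (limma adjusted p = 0.00313 and 0.00428), and both calls were lost without those 4 libraries (1.17 and 1.06, adjusted p = 0.086 and 0.214). A gene on the opposite strand overlaps IAA32 by 826 bases and had 351 reads in all against 319 for IAA32, so the reads of the pair cannot be told apart.

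The remaining calls of the family were for shade and warmth together, with 1 further call for IAA4. IAA4, IAA8, IAA13 and IAA14 were higher by 0.55 ± 0.12, 0.37 ± 0.12, 0.53 ± 0.17 and 0.77 ± 0.20 (limma adjusted p = 0.000897, 0.0298, 0.0267 and 0.0061). IAA14 (AT4G14550), known as SLR for its block of lateral roots, had 20.2, 27.0 and 33.0 CPM in shade at 28 °C and 14.1, 14.9 and 17.4 CPM in white light at 20 °C. IAA27 (AT4G29080), also named PAP2, was lower, with a change of -0.64 ± 0.23 (adjusted p = 0.0439), with 16.5, 16.4 and 12.3 CPM in shade at 28 °C against 25.9, 20.6 and 24 CPM in white light at 20 °C. These groups did not overlap for any of the 5 genes. The calls of IAA8, IAA13 and IAA27 were lost in 11, 8 and 9 of 22 alternatives, that of IAA14 without replicate 3 of shade at 28 °C (0.60), and the calls of all 5 without the 4 libraries over 1.5% 18S reads. Without those 4, the changes of IAA4, IAA8, IAA13, IAA14 and IAA27 were 0.30, 0.36, 0.48, 0.37 and -0.59 (limma adjusted p = 0.283, 0.19, 0.23, 0.502 and 0.343). For IAA8, the removals that ended the call were of replicates 1, 2 and 3 of shade at 28 °C and replicates 1, 2 and 3 of white light at 20 °C. Over the alternatives its change was 0.22 to 0.38. For IAA13 they were of replicate 2 of shade at 28 °C and replicates 1 and 3 of white light at 20 °C. Over the alternatives its change was 0.37 to 0.64. For IAA27 they were of replicates 1, 2 and 3 of shade at 28 °C, replicate 2 of white light at 28 °C and replicates 1 and 3 of white light at 20 °C. Over the alternatives its change was -0.80 to -0.50. With shade at 28 °C, IAA27 changed by -0.74, which did not pass, against 22.3, 27.2 and 25.8 CPM in white light at 28 °C, without overlap. It was called lower there without replicate 1 and without replicate 2 of shade at 20 °C, and lower with shade at 20 °C without replicate 1 of that group. The call of IAA4 for shade at 28 °C (0.39 ± 0.12, adjusted p = 0.0467) was lost in 14 of 22. Removals that ended it were those of replicates 2 and 3 of shade at 28 °C, replicates 1, 2 and 3 of shade at 20 °C, replicates 1, 2 and 3 of white light at 28 °C and replicates 1, 2 and 3 of white light at 20 °C. Over the alternatives its change was 0.15 to 0.50, and the lowest of these was the value without the 4 libraries over 1.5% 18S reads (limma adjusted p = 0.804).

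The other 12 tested Aux/IAA genes were not called in any comparison at the deposited scaling with all 12 libraries. IAA9 had changes of -0.10 to 0.25, IAA12, known as BODENLOS from the embryo, -0.18 to 0.25, and IAA18 -0.36 to 0.00. IAA28, a repressor of lateral root formation, had changes of -0.47 to 0.13, IAA1 0.03 to 0.56, IAA10 0.03 to 0.87 and IAA11 -0.03 to 0.51. IAA5, IAA30, IAA31, IAA33 and IAA34 had 2 to 20 reads over each group, and their 95% intervals reached from -4.8 to 4.64. Changes of several fold in either direction could therefore be missed at this depth. Without replicate 1 of white light at 20 °C, IAA34 was called lower with warmth in white light, where it had 2 reads over white light at 28 °C. Under each of the 3 other scalings IAA18 was called lower with shade and warmth together, as were IAA18 and IAA28 without the 4 libraries over 1.5% 18S reads.

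The change of a gene in shade at 28 °C can be set beside that at 20 °C without shared libraries. Across the 49 genes Pearson's r was 0.62 and Spearman's rho 0.42, and across the 43 with a mean log2 CPM of at least 2 they were 0.83 and 0.53. These are correlations across genes, which are not independent replicates. For warmth, under shade against in white light, r was -0.13 and rho 0.32 over 49 genes, and 0.51 and 0.56 over the 43.

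**Figure D5:**
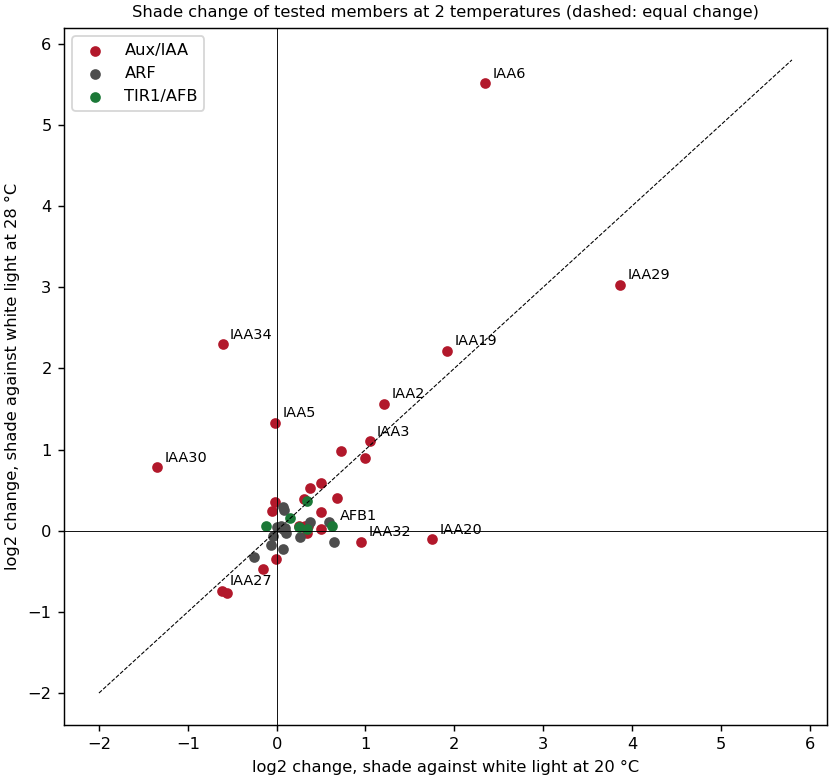
Log2 change of the 49 tested genes with shade at 28 °C (y axis) against that at 20 °C (x axis), with 1 point per gene, coloured by family; the dashed line marks equal change. IAA19, IAA2 and IAA3 lie near the line with changes above 1 on both axes, and IAA29, also above 1 on both, lies below the line. IAA20 lies at 1.75 on the x axis and -0.11 on the y axis, and the ARF genes lie between -0.32 and 0.65 on both axes.

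Among the ARF genes, ARF2, ARF11 and ARF18 were higher in treated groups, ARF4 was lower, and the 5 activating ARF genes were not called at the deposited scaling. Under each of the 3 other scalings, however, ARF8 was called lower with shade and warmth together, and ARF5 was so under 2 of them, the median and quantiles. ARF2 (AT5G62000), a repressing ARF that limits growth, had 252.6, 244.5 and 242.1 CPM in shade at 28 °C, 256.6, 247.6 and 247.2 CPM in shade at 20 °C, 257.6, 262.3 and 257.8 CPM in white light at 28 °C, and 204.6, 204.0 and 217.4 CPM in white light at 20 °C. The highest group was white light at 28 °C and the lowest white light at 20 °C, and neither overlapped the rest. It rose by 0.31 ± 0.09 with warmth in white light and by 0.24 ± 0.09 with both treatments (limma adjusted p = 0.0123 and 0.0431), and both calls were lost under each of the 3 other scalings. They were also lost without the 4 libraries over 1.5% 18S reads (0.30 and 0.26, limma adjusted p = 0.0825 and 0.236). The call for both treatments was lost in 12 of 22 alternatives. Removals that ended it were those of replicates 1, 2 and 3 of shade at 28 °C, replicate 2 of white light at 28 °C and replicates 1, 2 and 3 of white light at 20 °C. Over the alternatives its change was 0.09 to 0.27. Its change with shade at 20 °C, 0.26 ± 0.09, did not pass (limma adjusted p = 0.0554). That change was called with voom weights, and also when replicate 3 of white light at 28 °C was left out.

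ARF11 (AT2G46530), of the repressing class, had 51, 37.9 and 41.3 CPM in shade at 28 °C, 45.9, 41.3 and 43.4 CPM in shade at 20 °C, 43.1, 42.4 and 35.3 CPM in white light at 28 °C, and 28.6, 27 and 30.9 CPM in white light at 20 °C. The treated groups overlapped each other and lay above white light at 20 °C. ARF11 rose by 0.48 ± 0.14 with warmth in white light, by 0.59 ± 0.14 with shade at 20 °C and by 0.58 ± 0.14 with both (limma adjusted p = 0.0201, 0.00609 and 0.00307). The call for warmth was lost in 7 of 22 alternatives, among them all 3 other scalings. Removals that ended it were those of replicates 1 and 2 of white light at 28 °C and replicate 2 of white light at 20 °C. Over the alternatives its change was 0.32 to 0.57. Its other calls were kept in all 22. ARF18 (AT3G61830), its close relative, had 16.8, 20.1 and 15.3 CPM in shade at 28 °C, 20.6, 20.1 and 19 CPM in shade at 20 °C, 21.1, 19.4 and 17 CPM in white light at 28 °C, and 10.7, 11.8 and 16 CPM in white light at 20 °C. Its calls for warmth in white light (0.59 ± 0.20, limma adjusted p = 0.0448) and for shade at 20 °C (0.65 ± 0.20, adjusted p = 0.0427) were lost in 15 and 13 of 22 alternatives. Without the 4 libraries over 1.5% 18S reads these changes were 0.62 and 0.60 (limma adjusted p = 0.128 and 0.119). For warmth, the removals that ended the call were of replicates 1, 2 and 3 of shade at 20 °C, replicates 1, 2 and 3 of white light at 28 °C and replicates 1 and 2 of white light at 20 °C. Over the alternatives its change was 0.42 to 0.76. For shade they were of replicates 1, 2 and 3 of shade at 20 °C, replicate 2 of white light at 28 °C and replicates 1 and 2 of white light at 20 °C. Over the alternatives its change was 0.53 to 0.81. Shade at 28 °C overlapped white light at 20 °C, and the groups with a single treatment lay above it.

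ARF4 (AT5G60450), a repressing ARF of organ polarity, had 57.9, 59.3 and 54.1 CPM in shade at 28 °C, 60.2, 70.6 and 54.4 CPM in shade at 20 °C, 72.4, 67.5 and 74 CPM in white light at 28 °C, and 76.1, 80.2 and 64.3 CPM in white light at 20 °C. Shade at 28 °C lay below both white light groups. It was called lower with both treatments, at -0.36 ± 0.12 (limma adjusted p = 0.0313), and that call was lost in 6 of 22 alternatives. Removals that ended it were those of replicates 1 and 3 of shade at 28 °C and replicates 1 and 2 of white light at 20 °C. Over the alternatives its change was -0.51 to -0.27, the smallest of them without the 4 libraries over 1.5% 18S reads (limma adjusted p = 0.418). The activating ARF genes had changes over the 5 comparisons of -0.38 to -0.04 for ARF5 (MONOPTEROS), -0.06 to 0.05 for ARF6, 0.00 to 0.06 for ARF7, -0.28 to -0.06 for ARF8 and -0.05 to 0.38 for ARF19. Without replicate 3 of shade at 28 °C, ARF19 was called higher with both treatments. ARF7 (AT5G20730), which with ARF19 drives hypocotyl bending and lateral roots, had 86.7, 80.6 and 88.6 CPM in shade at 28 °C, 83.5, 88.5 and 83.1 CPM in shade at 20 °C, 80.7, 80.7 and 84.2 CPM in white light at 28 °C, and 77, 78.6 and 91.4 CPM in white light at 20 °C. All 4 groups overlapped, and the 95% intervals of its 5 changes lay between -0.22 and 0.27. The end of ARF7 overlaps by 254 bases CPN20 on the opposite strand, a chloroplast chaperonin gene with 8628 reads against 4112 for ARF7, which was itself higher with warmth in white light (0.45 ± 0.09, limma adjusted p = 0.00124) and lower with shade at 28 °C (-0.53 ± 0.09, adjusted p = 0.000569); reads of the pair cannot be told apart. The 95% intervals of ARF6, which acts with ARF8 in hypocotyls and flowers, lay between -0.30 and 0.29.

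The other repressing ARF genes were not called at the deposited scaling. Their changes over the 5 comparisons were -0.22 to 0.31 for ARF1, -0.40 to 0.29 for ARF3 (ETTIN) and 0.02 to 0.11 for ARF9. For ARF10, ARF16 and ARF17, the targets of miR160, they were -0.26 to 0.25, -0.13 to 0.11 and 0.04 to 0.23. ARF3 was called lower with warmth in white light under each of the 3 other scalings, and ARF10 with the median subtracted. Of the 8 ARF genes of Arabidopsis outside the 15, ARF20 had 3 reads in all, and ARF12, ARF13, ARF14, ARF15, ARF21, ARF22 and ARF23 had none.

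The proteins that work beside these families were looked at as 2 lists. The first held 11 genes for the SCF ubiquitin ligase, the RUB pathway that activates it, and the linked factors IBR5 and SGT1B. Of the 11, 4 were higher with shade and warmth together and 0 lower: IBR5, a phosphatase of the auxin response, by 0.72 ± 0.17, ECR1, a subunit of the RUB-activating enzyme, by 0.64 ± 0.13, ASK2, an SCF adaptor, by 0.36 ± 0.13 and CUL1, the cullin scaffold, by 0.30 ± 0.10 (limma adjusted p = 0.00223, 0.00081, 0.0448 and 0.0301). Over all genes tested, 14.9% were called higher there, and the median change was 0.19 for the list against 0.16 for all genes. With warmth in white light 2 of the 11 were higher (ECR1 and IBR5), where 10.8% of all genes were. With shade at 20 °C 1 was higher (IBR5, 0.53 ± 0.17, limma adjusted p = 0.0459), where 5.43% of all genes were, and that call was lost with voom weights. In the other 2 pairs 0 were called, where 1 gene each had a limma p under 0.05 before adjustment and 0 were called with voom weights. Of 6 genes for corepressors, TPL, TPR1 to TPR4 and HDA19, 0 were called in any comparison by limma, 1 had a p under 0.05 before adjustment, in shade at 20 °C, and 0 were called with voom weights. Of the alternative settings, only voom weights were looked at for these 2 lists.

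The interaction asked whether the shade change differed between the temperatures. By limma 0 of the 49 genes were called higher and 0 lower, where 0.446% of all genes were called, 0.127% higher and 0.319% lower. At a limma p under 0.05 before adjustment there were 9 of 49 genes, 1 higher and 8 lower, where 9.86% of all genes passed, and with voom weights 0 were called. The lowest adjusted p among them was that of IAA20, whose shade change at 28 °C minus that at 20 °C was -1.86 ± 0.48 on the log2 scale (adjusted p = 0.0881), followed by AFB1 at -0.56 ± 0.15 (adjusted p = 0.0895). Without replicate 3 of white light at 20 °C, IAA20 was called. For IAA29 the interaction was -0.84 ± 0.42 (adjusted p = 0.524).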

How the data were processed

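PolyA RNA of whole seedlings was sequenced as read pairs from 12 libraries, 3 in each of 4 groups, per the labels' protocols. The deposited table gives log2 CPM on the voom scale (0.5 read added before the log2), another kind of value than raw reads, as the authors made it. TopHat2 2.1.1, SAMtools 1.3, limma and R 4.0.2, with the build TAIR10, are named per the submitters' processing notes; the read counter and its use of strand are not given in the sources used here. Table columns are headed ambient or heat, taken as 20 and 28 °C. Whole reads were recovered from 100% of values within 0.001 read. Floors cover counting error only, since reads were not marked as unique molecules.

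Genes with a log2 value of at least 0 in at least 3 libraries were tested: 21316 of 33602. The other 12286 held 0.052% of reads. The 4 group means were estimated in a single limma 3.58.1 model of all 12 libraries under R 4.3.3 with a trended prior. P-values were adjusted by Benjamini-Hochberg across all genes tested, and 0.05 was the limit for a call. On simulated data with the libraries of warmth in white light and 21316 genes, 18%, 74%, 100% and 100% of genes changed 1.5-, 2-, 3- and 4-fold were recovered, and 10 of 21116 unchanged genes were called. The simulation gave all genes the same set spread, not estimated from these data, and changed no gene of the lowest levels. It changed far fewer genes than were called for warmth in white light, so recovery in the data may differ. The alternatives were a constant prior, looser and stricter filters, 3 scalings, 2 reads added, voom weights, the replicate number as a block, and every library removed in turn. Removing the libraries over 1.5% 18S reads was chosen after seeing the data. Python 3.11.15 (pandas 2.3.3, numpy 2.4.6) served for tables and motif searches, and matplotlib 3.10.9 for plots.

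The genes and lists were chosen with earlier results of these data known. All 50 genes are accounted for: called genes with their values, the others by their range. Names, sequences and coordinates are from the RefSeq annotation of TAIR10.1, matched by locus for 50 of 50 genes; the deposited table holds no coordinates. Levels were compared between genes per kb of merged exons.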

Additional observations from a re-analysis of the deposited data

Results flagged for a closer look

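For 2 of the 49 genes the shade libraries lay on opposite sides of the white light libraries at the 2 temperatures, with no overlap between the groups in either comparison; over all 21316 genes tested, 198 (0.929%) did so. These positions are those at the deposited scaling, and the other scalings were not looked at for them. With all 12 libraries and without weights, no single change passed the test. With shade at 20 °C, ARF2 was called with voom weights, and also when replicate 3 of white light at 28 °C was left out. IAA32 was called there without replicate 3 of white light at 20 °C. ARF2 differed by 0.26 ± 0.09 on the log2 scale with shade at 20 °C and by -0.07 ± 0.09 with shade at 28 °C (limma adjusted p = 0.0554 and 0.775). The difference between these changes was -0.34 ± 0.12 (limma adjusted p = 0.303), which did not pass. IAA32 differed by 0.96 ± 0.34 with shade at 20 °C and by -0.14 ± 0.34 with shade at 28 °C (limma adjusted p = 0.0909 and 0.92). The difference of -1.09 ± 0.49 (limma adjusted p = 0.457) did not pass either. The nearest libraries of IAA32 at 28 °C had 8.26 CPM (33 reads) in shade and 8.34 CPM (34 reads) in white light. Of the reads over the locus of IAA32, those of the gene on the opposite strand cannot be told apart.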

How the results depend on the processing

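Of 54 calls of single genes, 29 were kept in all 22 alternatives, and none changed direction in any of them. All calls of IAA19, IAA3 and IAA17 were among the 29, as were those of IAA29 and IAA2 in each comparison that set shade against white light. Without the libraries over 1.5% 18S reads, which leaves 1 library of shade at 28 °C that is assumed to vary like the other groups, 12 genes were called for shade and warmth together, 5 for shade at 28 °C and 0 for warmth under shade; the cause was not tested. A constant prior variance left 0 genes called for warmth under shade, and voom weights gave 3. With each library left out in turn, the count was 10 to 12 for warmth in white light, 10 to 13 for shade at 20 °C, 16 to 22 for shade and warmth together, 6 to 9 for shade at 28 °C, 0 to 2 for warmth under shade and 0 to 1 for the interaction. With the replicate block the counts were 11, 10, 22, 8, 1 and 0 in that order. Libraries of equal number did not deviate together (r of -0.0297 to 0.0414 over 18 pairs; 6 of 12 libraries were most like their own number), so the numbers were not taken to pair them. Many of these genes changed by about 1.5-fold. In the simulation 18% of changes of that size were recovered, so others may have been missed. The genes with fewest reads, IAA5, IAA6, IAA30, IAA31, IAA33 and IAA34, are limited by depth.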
